A study of Rattus norvegicus with 20 samples.

Results

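The late step of disease in rat lung was examined as 3 arrays titled Day 35 against the 6 arrays titled Day 21 or Day 28, taken as 1 pooled comparator, over all 1185 probes. The members were chosen by title alone and make up 9 of the 20 arrays of the series. Each array measured total RNA of whole rat lung, in a study that followed neointimal vascular proliferation and pulmonary hypertension over time. Day 21, Day 28 and Day 35 had 3 arrays each, numbered 9 to 11, 12 to 14 and 15 to 17 in the titles. Day 14 (2 arrays) and T (3 arrays) are given only as context, and the 5 arrays titled NL and the single array titled Normal Day 0 were not used. The labels give no strain, age, sex, agent or operation for any group, do not say what the days are counted from, and do not expand T. Nothing in them states that each array is a different rat, so the p-values reflect only how these samples scatter, which may in part be technical.

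Pulmonary hypertension is a raised pressure in the arteries of the lung. In its severe forms the inner layer of small pulmonary arteries thickens as smooth muscle-like and endothelial cells multiply, a lesion called a neointima, and the narrowed vessels load the right ventricle. In rats the lesion is known to build up over weeks, so that lungs taken at a series of times show its progress. In RNA of whole lung, a probe's value sums over all cell types, so fewer cells of a type and less RNA per cell cannot be told apart.

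Gene names are not paired with the probes in the files. Each probe is therefore given by its identifier, no pathway or cell type list could be counted, and the labelled tissue could not be checked against its markers. The identifiers carry the prefix R (702 probes) or RG (483 probes). The deposited values are centred on each array's median and look logarithmic, but no base is stated, so differences are given in deposited units and not as folds.

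The comparator arrays differed widely in the spread of their values, and the Day 35 arrays lay between them. The interquartile range over all probes was 1.28, 1.07 and 1.14 in Day 35 arrays 15, 16 and 17. It was 0.64, 0.66 and 1.75 in Day 21 arrays 9, 10 and 11, and 1.59, 0.49 and 1.64 in Day 28 arrays 12, 13 and 14. Arrays 9, 10 and 13 were thus narrower, and arrays 11, 12 and 14 wider, than every Day 35 array, and both labelled days held arrays of both kinds. The mean interquartile range was 1.16 ± 0.107 (SD, n = 3) at Day 35 and 1.13 ± 0.588 (n = 6) at Days 21 and 28, a difference of 0.035 (exact two-sided permutation p = 0.881 over 84 splits, of which the smallest possible p is 0.0119). Per probe, the SD over the Day 35 arrays was smaller than that over the 6 comparator arrays for 850 probes (71.7%), with medians of 0.231 and 0.379. The comparator SD mixes narrow and wide arrays: within the 3 narrow arrays the median was 0.106 and within the 3 wide ones 0.249.

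The arrays most alike were not always those of one day. Among pairs of Day 35 arrays Spearman's correlation, across probes that are not independent, had a median of 0.861 (3 pairs, range 0.765 to 0.887). It was 0.832 in the 15 pairs of comparator arrays (0.734 to 0.924) and 0.838 in the 18 pairs between them (0.742 to 0.908). Day 35 array 15 was closest to Day 28 array 14 (0.908) and Day 35 array 17 to Day 21 array 10 (0.874). Only array 16 was closest to an array of its own day, array 15 (0.887). In a principal component analysis of the 9 arrays the first component held 51.2% of the variance and set the narrow comparator arrays (10.7 to 13.0) apart from the wide ones (-18.5 to -12.5), with Day 35 at -0.93 to 6.35. The second held 16.2%, and on it the Day 35 arrays (4.99 to 11.3) did not overlap the comparator arrays (-8.02 to 2.76). After quantile normalization this separation was lost: on the second component Day 35 array 17 was at -1.73 and Day 21 array 9 at 4.73.

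**Figure D1:**
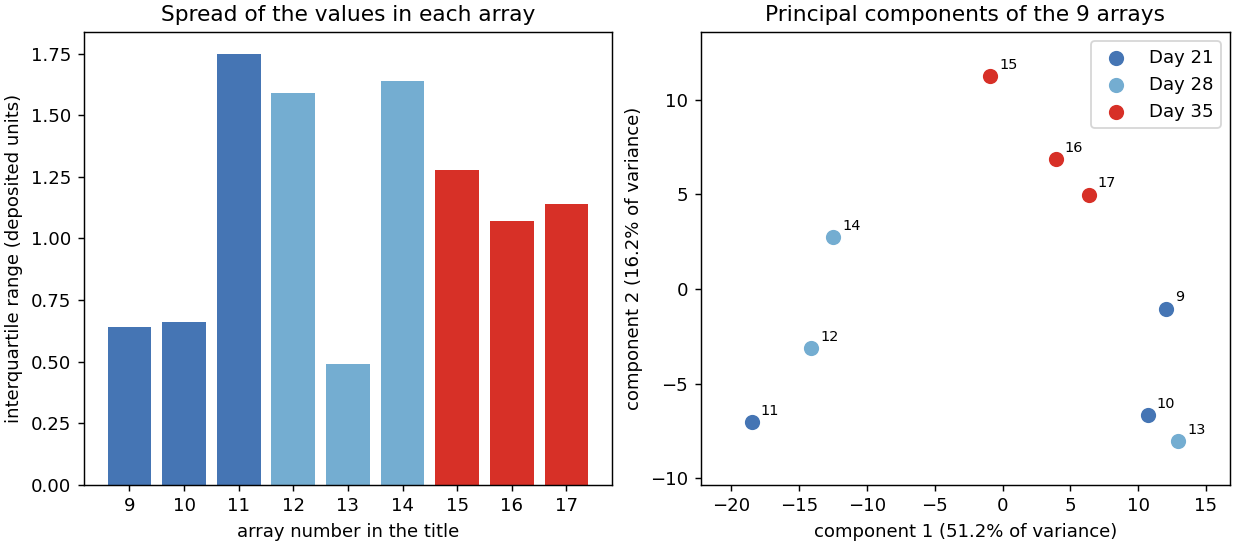
Left, interquartile range of all deposited values in each of the 9 arrays (bars, coloured by day), in deposited units; the Day 35 bars, 1.07 to 1.28, fall in the gap between the comparator arrays. Right, the first and second principal components of the 9 arrays (points, with array numbers); the Day 35 arrays lie at 4.99 to 11.3 on the second axis, above every comparator array.

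The comparison asked which probes differed at the late step without use of the NL reference. No probe passed: limma with Benjamini-Hochberg adjustment over 1185 probes called 0 (0%), with a smallest adjusted p of 0.0738, for R511. The count at an unadjusted p under 0.05 was 79 probes (6.67%), where 59.25 would be expected if no probe differed, and 65 of them were higher (5.49%) and 14 lower (1.18%) at Day 35. The ranges of the arrays did not overlap for 58 probes (4.89%), 41 with every Day 35 array above every comparator array (3.46%) and 17 with every one below (1.43%). Leaving out Day 21 array 9 turned the 0 calls into 4. Dropping array 17 of Day 35 gave 3 and dropping array 16 gave 1, and the 79 became 41 when Day 35 array 15 was dropped.

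The share of higher probes differed between the scales tried. As deposited, 82.3% of the 79 probes and 70.7% of the 58 were higher, and 62.4% of all probes had a positive difference. After quantile normalization the shares were 58.1% of 93 probes, 49.1% of 53 and 49.5% of all probes. With the arrays scaled to a common interquartile range they were 65.5% of 55 probes, 54.3% of 35 and 50.7%. The median difference over all probes was 0.08 as deposited, 0.00 after quantile normalization and 0.00 with a common range. Quantile normalization makes the arrays' distributions equal, so its differences average out over all probes by construction. That alone does not fix the share of probes that are higher. The ranges stayed apart on all 3 scales for 21 probes, 11 higher and 10 lower. A probe whose Day 35 and comparator values lie on opposite sides of 0 stays apart with a common range by construction. These counts therefore do not compare the directions.

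**Figure D2:**
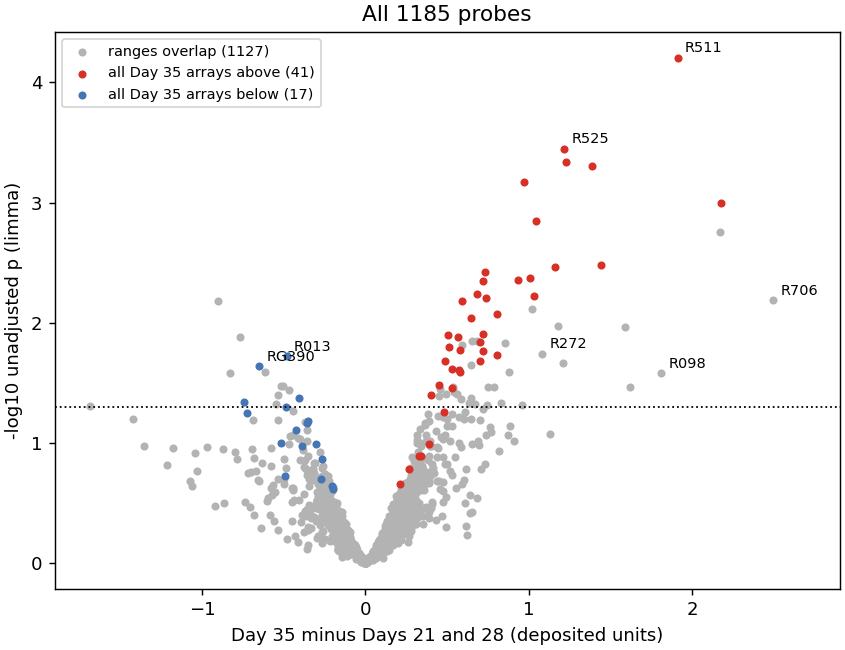
Difference of means (x axis, deposited units) against -log10 of the unadjusted limma p (y axis) for each of the 1185 probes. Red points mark the 41 probes with all Day 35 arrays above the 6 comparator arrays, blue points the 17 with all below, and the dotted line marks the unadjusted threshold; the named probes are labelled, and R511 is the highest point.

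The 41 probes that were higher in every Day 35 array differed by 0.21 to 2.18, with a median of 0.70 where the median of all 1185 probes was 0.08. The gap between the lowest Day 35 array and the highest comparator array had a median of 0.14 and exceeded 0.5 for 3 of them, so most separations were narrow. Of the 41, 35 had an unadjusted p under 0.05, against 6.67% of all probes, and a small p is favoured by the separation that defines them. The prefix R was carried by 26 of them (63.4%, against 59.2% of all probes). The median of their group means was 1.11 for the Day 35 arrays. It was 0.38 over the Day 21 arrays, 0.33 over those of Day 28, 0.21 over the Day 14 pair and 0.69 in the T arrays, whereas over all probes these medians lay between 0.00 and 0.04. The high place of Day 35 follows from how the 41 were picked out.

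Within these 41 probes, 2 comparator arrays were the nearest to Day 35 more often than the others. Among the comparator arrays, Day 21 array 9 was the highest for 17 probes (41.5%, against 12.6% of all probes) and Day 28 array 14 for 13 (31.7%, against 17.7%). Day 21 array 11 was the lowest for 20 (48.8%, against 24.2%). Among the Day 35 arrays, array 15 was the highest for 24 (58.5%, against 24.7% of all probes), and array 16 was the lowest for 19, a share of 46.3% that is close to its 45.9% over all probes.

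The 17 probes that were lower in every Day 35 array showed smaller differences, from -0.74 to -0.20 with a median of -0.41. They also lay lower on the scale, with a median level of -0.07 over the 9 arrays, against 0.73 for the 41 higher probes. The lowest values of any probe in the narrow arrays 9, 10 and 13 were only -0.44, -0.43 and -0.30. Whether their level limited the size of the differences was not tested. Their gaps to the comparator ran from 0.01 to 0.16, and 4 of the 17 had an unadjusted p under 0.05, against 6.67% of all probes (1.18% lower). These probes had medians of group means of -0.27 in the Day 35 arrays, 0.12 over those of Day 21, 0.07 over those of Day 28, 0.17 over the Day 14 pair and 0.02 in the T arrays. The wide Day 21 array 11 was the highest comparator array for 13 of the 17, against 22.2% of all probes.

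A difference above 1 unit was seen for 20 probes and one below -1 unit for 9. The ranges were apart for 10 of the 20 and 0 of the 9, against 4.89% of all probes, and 19 of the 20 and 1 of the 9 had an unadjusted p under 0.05, against 6.67%. Picking probes by the size of this difference itself favours separated ranges and a small p. The median SD over the comparator arrays was 0.52 for the 20 and 1.37 for the 9, where it was 0.38 over all probes. The median SD over the Day 35 arrays was alike in both sets, at 0.48 and 0.45. Whether the directions differ in these respects was not tested. Among the 9, R541, RG072, RG207, R427, R549 and R157 stood at -0.02 to 0.38 from the mean of the narrow comparator arrays. From that of the wide ones they stood at -2.59 to -2.08. R039 (-1.18 and -2.19), RG121 (-0.50 and -2.34) and RG434 (-1.30 and -1.42) were below both means. These probes were named after their values were seen.

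R511 had the smallest p. It read 2.21, 2.08 and 2.12 in Day 35 arrays 15 to 17, 1.24, -0.12 and -0.34 in Day 21 arrays 9 to 11, and 0.00, 0.31 and 0.27 in Day 28 arrays 12 to 14. The Day 35 arrays thus lay within 0.13 units of each other and above all 6, and Day 21 array 9 stood well above the other comparator arrays. The means were 2.14 ± 0.0666 (SD, n = 3) and 0.23 ± 0.553 (n = 6). Their difference was 1.91 (SE 0.30, limma adjusted p = 0.0738), and the exact two-sided permutation p was 0.0119, the smallest possible in this design. R511 was picked among probes whose ranges did not overlap. That choice favours a small permutation p, which therefore adds no separate support. Without Day 21 array 9 the difference was 2.11 (adjusted p = 0.00137), and over all alternatives the adjusted p ran from 0.00137 to 0.664. In T the probe read 0.97, 2.68 and 2.05, and in Day 14 arrays -0.08 and -0.16. With a common interquartile range, R511 and R525 overlapped the comparator arrays.

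R525 followed by the same order. It read 2.16, 1.58 and 1.79 at Day 35, 1.02, 0.24 and 0.31 at Day 21 and 0.92, 0.40 and 0.87 at Day 28. Every Day 35 array was higher than the comparator arrays, again with Day 21 array 9 the nearest. The difference was 1.22 (SE 0.24, limma adjusted p = 0.148). The T arrays read 0.80, 0.74 and 0.53, inside the range of Days 21 and 28, where those of R511 lay on both sides of the Day 35 range. The Day 14 arrays read 0.22 and 0.09, below all 9.

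R013 and RG390 headed the probes lower in every Day 35 array. R013 read -0.04, -0.22 and -0.28 at Day 35, 0.14, 0.12 and 0.52 at Day 21 and 0.48, 0.15 and 0.40 at Day 28. RG390 read -0.04, -0.22 and -0.49 at Day 35, 0.15, 0.17 and 1.08 at Day 21 and 0.63, 0.11 and 0.25 at Day 28. In both, the Day 35 arrays were below 0, that is below their array's median, and all 6 comparator arrays were above it. The differences were -0.48 for R013 (SE 0.17, limma adjusted p = 0.562) and -0.65 for RG390 (SE 0.24, adjusted p = 0.597). Their ranges stayed apart after quantile normalization and with a common interquartile range, but this adds no separate support. Scaling to a common range multiplies each array by a positive factor, so values on opposite sides of 0 cannot come to overlap. Quantile normalization keeps the order within each array, so values on opposite sides of their arrays' medians stay apart as well. The Day 14 arrays were high in both, at 0.33 and 0.71 for R013 and 0.36 and 1.10 for RG390. In T, R013 read 0.29, 0.27 and -0.05 and RG390 read 0.24, 0.56 and -0.23, so that T array 20 alone fell within the Day 35 range.

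**Figure D3:**
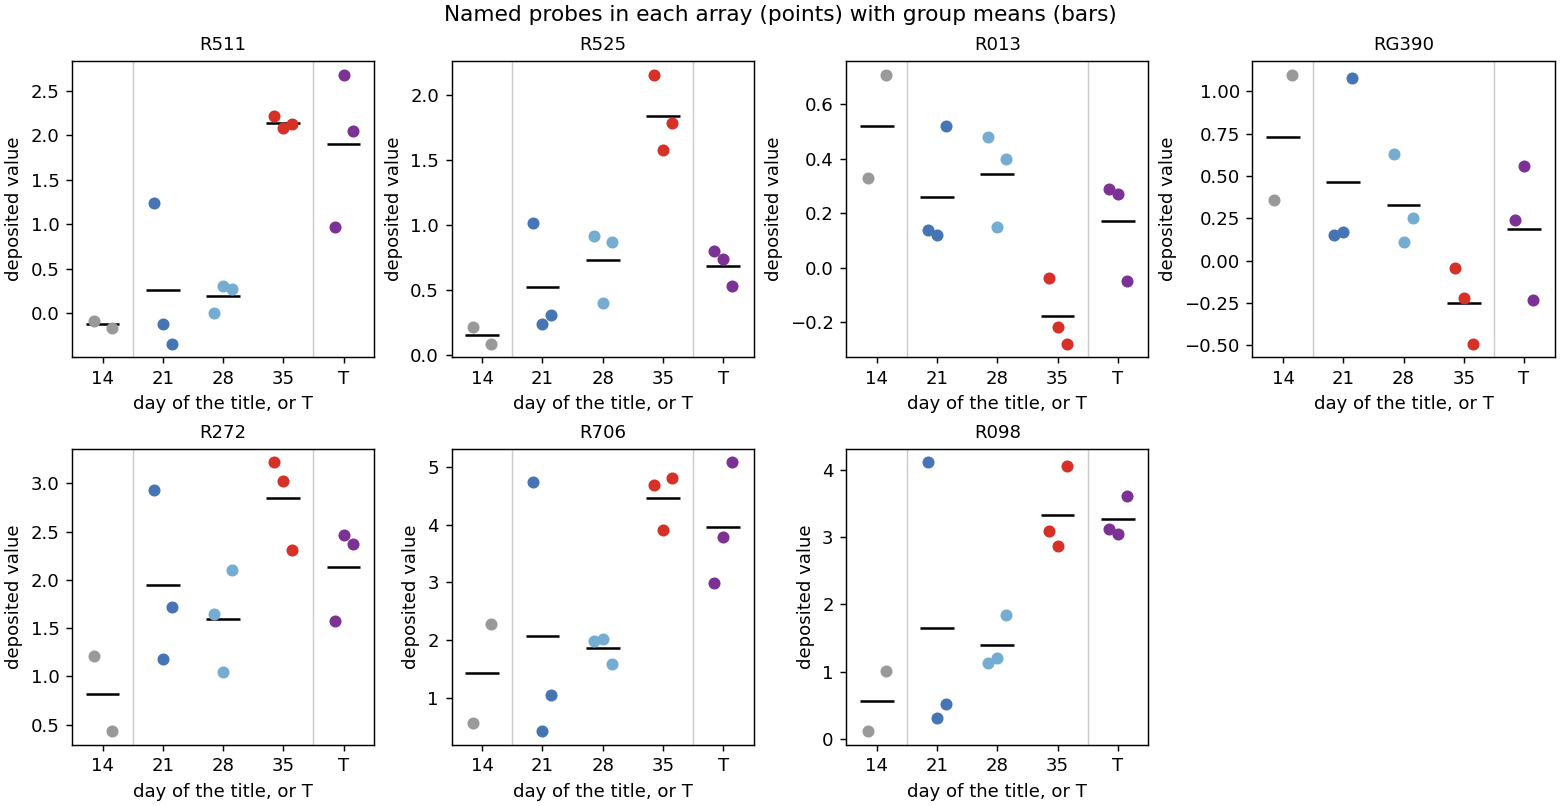
Deposited value of 7 probes in each array (points) and the mean of each group (black bars) for Day 14, Day 21, Day 28, Day 35 and T; each panel has its own y axis. In R511 the Day 35 points sit at 2.08 to 2.21 above every Day 21 and Day 28 point, while a single Day 21 point, array 9, sits among the Day 35 points in R706 and above them in R098.

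R272, R706 and R098, which earlier results of these data had picked out as high at Day 35 against NL, were followed as values. That choice used the same Day 35 arrays, so their differences, p-values and intervals here are not independent of it. R706 had the largest difference of all probes, 2.49 (SE 0.74, limma adjusted p = 0.391). It read 4.68, 3.90 and 4.80 at Day 35, 4.73, 0.42 and 1.05 at Day 21 and 1.99, 2.02 and 1.59 at Day 28. The Day 28 arrays were tightly grouped well below Day 35, and Day 21 array 9 was within the Day 35 range. Without array 9 the difference was 3.05 (adjusted p = 0.00649), and against Day 28 alone it was 2.59 (limma adjusted p = 0.00930 in a fit to the Day 28 and Day 35 arrays, but 0.925 with SE 0.89 in the fit with 3 day groups, whose spread includes array 9). With a common interquartile range the difference was 1.53. Over all alternatives the adjusted p ran from 0.00649 to 0.997. The T arrays read 2.99, 3.78 and 5.08, spanning the Day 35 range.

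In R098 the same array was again the highest of the comparator. It read 3.09, 2.86 and 4.05 at Day 35, 4.11, 0.32 and 0.53 at Day 21 and 1.13, 1.20 and 1.85 at Day 28. Day 21 array 9 exceeded every Day 35 array, and the other 5 comparator arrays were below all of them. The difference was 1.81 (SE 0.70, limma adjusted p = 0.597), and 2.33 without array 9 (adjusted p = 0.0397, range over all alternatives 0.0278 to 0.997) and 1.10 with a common interquartile range. T read 3.12, 3.05 and 3.61, all within the Day 35 range.

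R272 differed least of the 3. It read 3.22, 3.02 and 2.31 at Day 35, 2.93, 1.18 and 1.72 at Day 21 and 1.65, 1.04 and 2.10 at Day 28. Day 21 array 9 again lay inside the Day 35 range. The difference was 1.08 (SE 0.39, limma adjusted p = 0.559), with a 95% interval from 0.22 to 1.94 before adjustment, and 0.56 with a common interquartile range. T read 1.57, 2.46 and 2.37.

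The preceding labelled step was set beside the late one in a fit with the 3 days as groups. Day 28 against Day 21 gave 0 limma calls (0%), with 1 probe (0.0844%) at an unadjusted p under 0.05. Day 35 gave 0 calls against Day 21 (49 probes, 4.14%, at an unadjusted p under 0.05) and 0 against Day 28 (46 probes, 3.88%). Each of these unadjusted counts was below the 59.25 expected if no probe differed. A difference above 1 unit in size was seen for 5 probes between Days 21 and 28, and for 33 in each comparison with Day 35. The median absolute difference over all probes was 0.177 for Day 28 minus Day 21, 0.183 for Day 35 minus Day 21 and 0.23 for Day 35 minus Day 28. These comparisons share arrays, and whether the steps differ in size was not tested. For each of the 7 named probes Day 28 minus Day 21 was smaller than its SE: -0.07 (SE 0.37) for R511, 0.21 (SE 0.29) for R525, 0.08 (SE 0.22) for R013, -0.14 (SE 0.30) for RG390, -0.35 (SE 0.46) for R272, -0.20 (SE 0.89) for R706 and -0.26 (SE 0.85) for R098. A small step here is not particular to them, since over all probes the median absolute difference was 0.177 and the median SE 0.302. For R511, R525, R013 and RG390, picking by a small p against the pooled days also favours a small difference between those days.

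The Day 35 level was also set beside the 3 narrow and the 3 wide comparator arrays in turn, as a description. These sets were formed from the measured spread and not from the labels, and each mixes Days 21 and 28, so a test against either would be conditioned on the values themselves. Over all probes the Day 35 mean lay between the narrow and the wide mean for 680 (57.4%), above both for 316 (26.7%) and below both for 189 (15.9%). R511 stood 1.66 above the narrow and 2.16 above the wide arrays, and R525 stood 1.29 and 1.14 above them. R013 stood at -0.32 and -0.65, and RG390 at -0.39 and -0.90. For these named probes, lying on the same side of both means follows from how they were picked. With the interquartile range of each array as a covariate the limma fit again called 0 probes (smallest adjusted p = 0.0519). At an unadjusted p under 0.05 it had 218 of 1185 probes, 150 higher and 68 lower, against 79 (6.67%) in the main fit. The part of array spread in the single probe differences was not tested further.

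**Figure D4:**
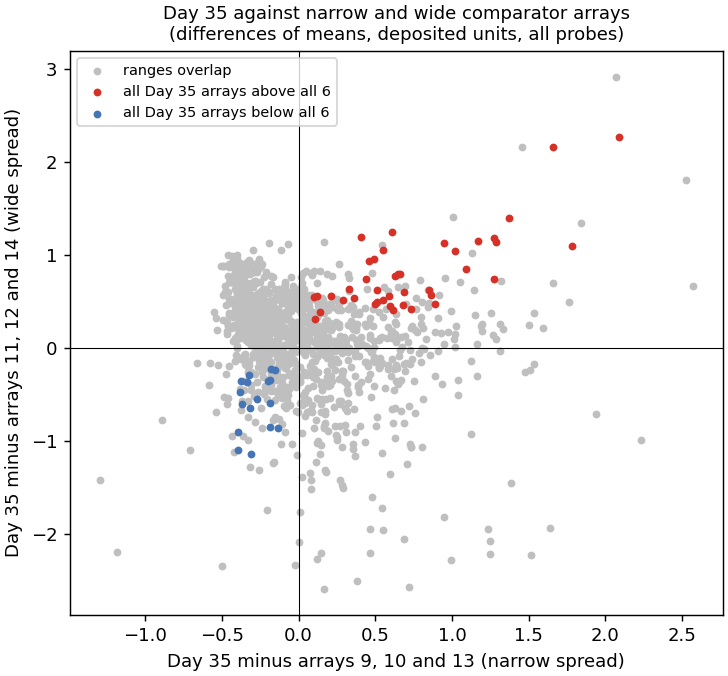
Day 35 mean minus the mean of arrays 9, 10 and 13, of narrow spread (x axis), against Day 35 mean minus the mean of arrays 11, 12 and 14, of wide spread (y axis), in deposited units, for each probe (points). For 680 probes the Day 35 mean lies between the narrow and the wide mean. The 41 red points are positive on both axes and the 17 blue points negative on both, which follows from how they were picked.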

How the data were processed

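The deposited table held 1 score per probe and array, the authors' processed value with 2 decimals; the sources used here name no platform, background correction, normalization or log base. Array medians lay at -0.01 or 0. Groups came from the titles, whose running numbers are unique and pair no arrays. The number of arrays limits the precision, and signal over background is unknown.

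The values were used as deposited. limma 3.58.1 in R 4.3.3 (lmFit, eBayes) compared 3 Day 35 arrays with 6 arrays of Days 21 and 28, with 7 residual degrees of freedom, no filter and no covariate. A fit with 3 day groups gave single steps. Tests were two-sided at 0.05 after Benjamini-Hochberg adjustment over all probes. The fit was tested on simulated data. Figures used matplotlib 3.10.9 in Python 3.11.15.

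The members, the followed probes and the lists were chosen with earlier results of these data known. With no gene names, the rule named the 2 probes per direction with the smallest p among those whose ranges did not overlap, since none was called, plus R272, R706 and R098. Lists of markers and pathway genes were not run. Alternatives covered scaling, floors, filters, variance models, covariates, comparators and leaving out arrays; the fit without the narrow comparator arrays, the narrow and wide means, the agreement of the scalings and the alternatives for unadjusted counts were added after seeing the data.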

Additional observations from a re-analysis of the deposited data

Results flagged for a closer look

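R706 in Day 21 array 9 read 4.73, far from the other 5 arrays of Days 21 and 28, which ran from 0.42 to 2.02. Its gap to the nearest of them was 0.629 of the range of the 6 arrays, where the 95% critical value for 6 samples is 0.625. It was 1 of 8 measures tested this way (the 7 named probes and the interquartile range), and chance marks about 1 in 20. The ratio for the same array was 0.596 in R098, 0.589 in R511 and 0.439 in R272, none past the critical value.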

How the results depend on the processing

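Of 22 alternatives, 15 also gave 0 calls for Day 35 against Days 21 and 28. Trended and robust variances called 1 probe (R511), and Day 28 as the only comparator called 2 (R511 and R706). The fit without the 3 wide comparator arrays called 2 (0.169%, R035 and RG139), and that without the 3 narrow ones called 141 (11.9%). The 141 included all named probes but RG390 (limma adjusted p 0.0278 for R525 and 0.0463 for R013 and R272). The median SE was 0.16 without the wide and 0.22 without the narrow arrays, against 0.25 in the main fit. For 110 of the 141 probes the Day 35 mean lay between the narrow and the wide mean, and 12 had ranges apart over the 9 arrays. Both sets of arrays were formed from the measured spread, so these counts do not test the labelled days. Leaving out 1 array gave 0 to 4 calls: R039, lower, with R098, R511 and R706 without Day 21 array 9, R628 without Day 35 array 16, and R477, R696 and R707 without Day 35 array 17; probes outside the naming rule were named after their values were seen. At an unadjusted limma p under 0.05 the main fit had 79 of 1185 probes (6.67%). The count was 218 with the interquartile range as covariate, 343 without the wide and 391 without the narrow arrays. It was 41 to 88 without single arrays. Ranges were apart for 58 of 1185 probes (4.89%) in the main comparison and for 35 with a common interquartile range. The count was 437 without the wide arrays, 463 without the narrow arrays, 130 with Day 21 only and 106 with Day 28 only. It was 60 to 145 without single arrays (118 without Day 35 array 16 and 145 without Day 35 array 17). Fewer arrays make separation easier. Of the 58 probes, 29 remained apart after quantile normalization and 22 with a common range, where probes with values on opposite sides of 0 stay apart by construction. Day 28 against Day 21 gave 0 calls in all 14 alternatives, with 0 to 113 probes at an unadjusted p under 0.05. The spread difference ran from -0.093 to 0.159 without single arrays, reversing without Day 21 array 9 (-0.063), Day 21 array 10 (-0.059), Day 28 array 13 (-0.093) or Day 35 array 15 (-0.023). The 7 named probes kept their direction in all 22 alternatives, which was in large part fixed in advance. Leaving out arrays cannot reverse R511, R525, R013 or RG390, whose ranges were apart, and some alternatives changed only the variance or the adjustment. The differences of R272, R706 and R098 were over 1.5 times smaller with a common interquartile range, at 0.56, 1.53 and 1.10. No paired analysis was possible because the groups share no replicate number.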
